A study of Mus musculus with 7 samples.

Results

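The 9 genes described here encode transcription factors that set or keep the identity of hippocampal and cortical neurons: Neurod1, Neurod2, Neurod6, Tbr1, Prox1, Bcl11b, Zbtb20, Nfia and Nfib. Their members in the data are the regions enriched for 5-methylcytosine (5mC, the methylated form of the base cytosine) that overlap the gene body or 1 kb on either side of it. There were 123 such regions among the 133337 active regions of the whole data set, which is 0.0922%. Gene positions are those of RefSeq on GRCm38.p6, the assembly called mm10 in the deposited tracks, and the rule that assigns regions to genes uses position alone.

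Hippocampal neurons of C57BL/6J mice were taken from E18.5 embryos and grown for 11 days in culture, with AraC, an inhibitor of dividing cells, added at medium changes. The libraries form 2 groups of 3, cultures left untreated and cultures held in 55 mM KCl for 4 h. High KCl depolarises neurons and so mimics strong activity, and the series set out to find targets of neuronal activity in transcription and DNA methylation. Methylated DNA was captured with an antibody and sequenced (MeDIP-seq). The sources used here do not say which animals or dishes each library stands for. The p-values therefore set the difference between groups against the variation among these libraries, and that variation could be technical. The DNA came from whole cultures, so methylation in more of the cells and methylation of more sites per cell cannot be told apart. 5mC enrichment does not measure expression and gives no check of the cell types in the dish.

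The height of a region in a library is the deposited height of its highest summit there, and a region is called in a library that has an interval in it. The libraries called 25.7% to 69.4% of all active regions. KCl replicate 3 was the lowest and KCl replicate 1 the highest. The number of reads per library is unknown, so no counting interval is given.

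Neurons of the hippocampus are told apart by such factors. The basic helix-loop-helix proteins Neurod1, Neurod2 and Neurod6 drive differentiation of excitatory neurons, and the T-box protein Tbr1 marks early-born glutamatergic neurons of the cortex. The homeobox protein Prox1 is needed for granule cells of the dentate gyrus, while the zinc finger proteins Bcl11b (also called Ctip2) and Zbtb20 act in pyramidal and granule neurons of the hippocampus. Nfia and Nfib belong to the nuclear factor I family, which takes part in both neuronal and glial development. MeDIP captures fragments by the number of methylated CpG dinucleotides they carry, so a stretch with few CpG sites gives a weak signal even when methylated.

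Most promoter windows of these genes held no 5mC region, both those rich and those poor in CpG. RefSeq promoter windows, from 250 bases before to 50 bases after a transcription start, were on hand for 8 of the 9 genes, Nfib being the exception, with 9 windows in all. Only 1 of the 9 windows, that of Nfia, was overlapped by a region, and across 21263 windows of protein-coding genes 3.63% were. Of the windows with 15 or more CpG sites 2.49% were overlapped, of those with 5 to 14 sites 7.44%, and of those with 0 to 4 sites 2.19%. The sequences below show the window that held a region and windows of the 3 Neurod genes that held none. They are given 5′ to 3′ in the direction of transcription (GRCm38.p6), with every CG in capitals. CG reads the same on both strands, and the dinucleotides searched do not overlap another motif.
Nfia: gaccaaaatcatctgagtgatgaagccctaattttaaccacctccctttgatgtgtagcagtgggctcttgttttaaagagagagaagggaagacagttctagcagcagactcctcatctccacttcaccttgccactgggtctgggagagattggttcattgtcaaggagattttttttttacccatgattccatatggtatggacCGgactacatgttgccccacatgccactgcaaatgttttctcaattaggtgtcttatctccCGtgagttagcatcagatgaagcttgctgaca
Neurod6: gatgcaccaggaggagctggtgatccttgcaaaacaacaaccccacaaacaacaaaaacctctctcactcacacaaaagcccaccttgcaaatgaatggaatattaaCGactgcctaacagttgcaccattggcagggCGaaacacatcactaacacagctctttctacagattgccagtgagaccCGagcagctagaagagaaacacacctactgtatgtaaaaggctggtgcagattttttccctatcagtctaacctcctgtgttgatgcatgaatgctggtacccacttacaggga
Neurod1: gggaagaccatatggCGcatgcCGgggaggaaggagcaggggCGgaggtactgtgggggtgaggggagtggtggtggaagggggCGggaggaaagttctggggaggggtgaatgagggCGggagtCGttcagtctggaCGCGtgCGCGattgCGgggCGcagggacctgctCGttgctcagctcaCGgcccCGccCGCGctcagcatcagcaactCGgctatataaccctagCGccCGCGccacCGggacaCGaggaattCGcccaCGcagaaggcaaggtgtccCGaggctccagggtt
Neurod2: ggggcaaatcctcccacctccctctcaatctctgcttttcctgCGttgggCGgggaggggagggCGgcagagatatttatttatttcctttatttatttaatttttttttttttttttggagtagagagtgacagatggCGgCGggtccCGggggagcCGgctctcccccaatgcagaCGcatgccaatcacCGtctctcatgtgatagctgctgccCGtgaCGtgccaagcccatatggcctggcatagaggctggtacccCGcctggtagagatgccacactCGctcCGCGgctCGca
The Nfia window (chr4:97581693-97581992, plus strand) has 2 CpG sites, and 88.6% of the protein-coding windows have at least as many. A 5mC region reached 41 bases into its downstream end, and those bases hold 1 of the CpG sites. The Neurod6 window (chr6:55681214-55681513, minus strand) has 3 CpG sites, the Neurod1 window (chr2:79456587-79456886, minus strand) 26 and the Neurod2 window (chr11:98329596-98329895, minus strand) 16. At Neurod1 and Neurod6 the nearest of the gene's regions lay 3244 and 1616 bp from the window. The other windows had 25 and 14 CpG sites at Prox1, 9 at Bcl11b, 7 at Tbr1 and 3 at Zbtb20. The Zbtb20 start lies 371.6 kb inside the annotated gene body and the Nfia start 3877 bp inside. The Tbr1 start lies 1590 bp inside, that of the Prox1 window with 14 CpG sites 1312 bp and the Bcl11b start 731 bp. These windows therefore stand for starts of some transcripts only.

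The gene bodies differed widely in how densely they held 5mC regions. Of the 123 regions, 49 lay in Nfia, 24 in Bcl11b, 19 in Prox1 and 18 in Zbtb20. Nfib had 6, Tbr1 4, Neurod6 2 and Neurod1 1, and Neurod2 had none. Per 10 kb of gene body and flanks there were 3.67 regions at Neurod6, 3.47 at Prox1, 3.02 at Tbr1, 2.51 at Bcl11b and 1.67 at Neurod1. The longest genes had fewer, with 0.903 at Nfia, 0.275 at Nfib and 0.237 at Zbtb20. The median over 21887 protein-coding genes was 0.484, with quartiles of 0 and 1.24. In genes under 5 kb a single region moves the density by a large step, so the values of the Neurod genes are coarse.

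**Figure D1:**
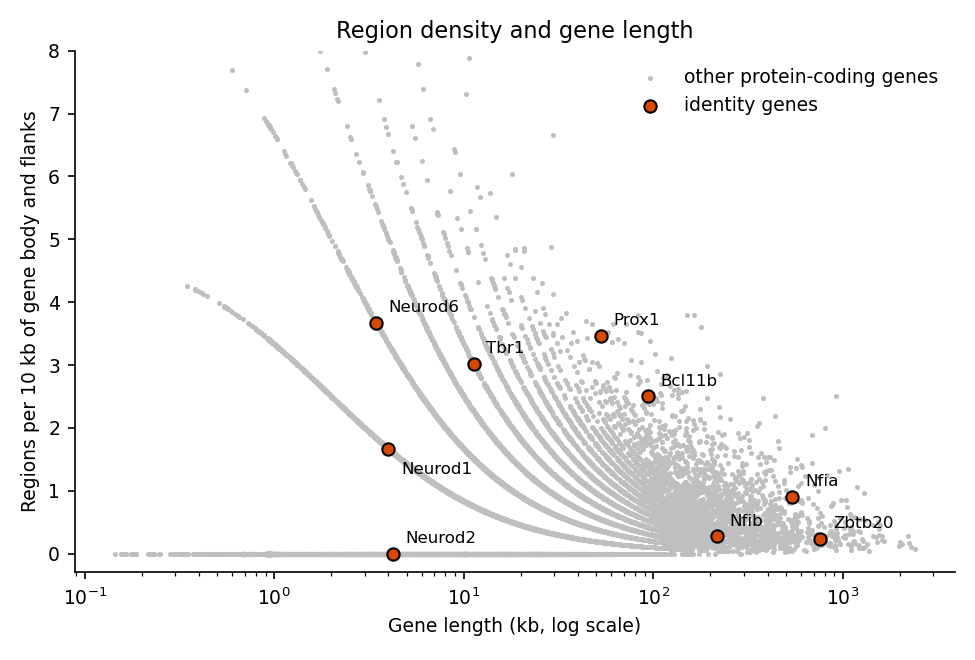
Regions per 10 kb of gene body and flanks against gene length in kb (log scale) for protein-coding genes (grey points) and the 9 identity genes (orange, named). Prox1 and Bcl11b sit at 3.47 and 2.51 near the top of genes of their length, Zbtb20 and Nfib at 0.237 and 0.275 below the median of theirs, and 16 genes above 8 per 10 kb are not drawn.

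Among genes of like length, Prox1, Bcl11b, Neurod6 and Tbr1 ranked high, and Zbtb20 and Nfib lay below the median, near the lower quartile of 0.260. Of the 7610 protein-coding genes of 20 to 100 kb, 99.4% were less dense than Prox1 and 97.3% less dense than Bcl11b, and their median was 0.602 regions per 10 kb. Of the 6814 genes of 5 to 20 kb, 94.5% were less dense than Tbr1, and of the 5034 genes under 5 kb, 94.9% were less dense than Neurod6. Of the 2429 genes of 100 kb or more, 75.7% were less dense than Nfia, 26.6% less dense than Nfib and 22.4% less dense than Zbtb20, with a median of 0.508. These ranks describe the genes and were not tested. CpG sites per length were not counted for gene bodies, so their part in these densities was not tested.

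**Figure D2:**
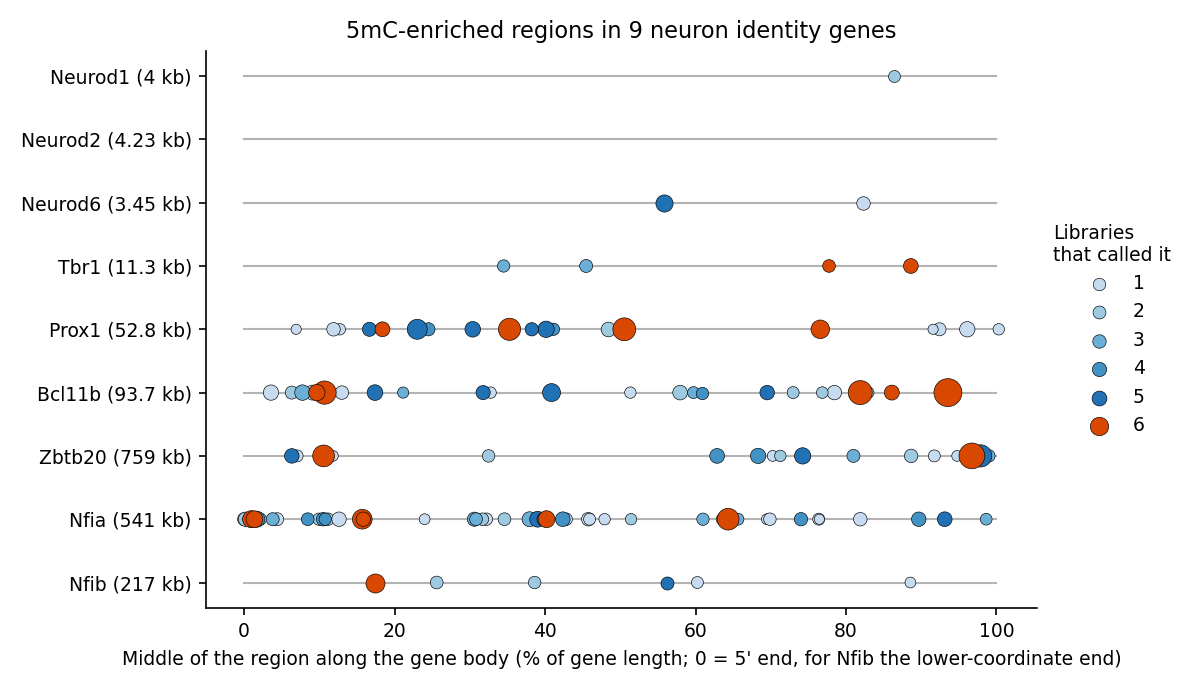
Position of each region along its gene body (0 to 100% of gene length; for Nfib from the lower coordinate, as its strand was not used), with 1 line per gene. Marker area grows with the mean height up to 60 and colour gives the number of libraries that called the region. Neurod2 is empty, the regions of Nfia crowd at its 5′ end, and the highest regions of Bcl11b and Zbtb20 lie near their 3′ ends.

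The 3 basic helix-loop-helix genes carried 3 regions in all, none of them called in all 6 libraries. Over all active regions 20.5% were called in all 6, and over all protein-coding genes 35% had such a region. Neurod2, which acts in maturing excitatory neurons, had no region in any library (chromosome 11, 98325415 to 98329645). Of protein-coding genes under 5 kb, 74.2% had none. Neurod1, needed for granule cell neurogenesis in the dentate gyrus, had 1 low region 383 bp from its 3′ end (chromosome 2, 79453020 to 79453343). It was called in untreated replicates 1 and 2 at heights of 12 and 10 and in no KCl library.

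Neurod6, a marker of pyramidal neurons, had a region in the middle of its short gene body (chromosome 6, 55679081 to 55679598). Its heights were 29, 28 and 18 untreated and 20 and 18 in KCl replicates 1 and 2, with no call in KCl replicate 3. The KCl heights lay within or at the edge of the untreated range. A second region nearer the 3′ end (55678323 to 55678532) was called in KCl replicate 1 alone, at a height of 14.

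Tbr1, on chromosome 2, had 4 regions, all low, and its 2 most reproducible ones lay in the 3′ part of the gene. The highest region (61812285 to 61813385), 729 bp from the 3′ end, had heights of 20, 15 and 19 untreated and 19, 16 and 12 with KCl. It was the only region within 1 kb of an end of these 9 genes that all 6 libraries called. The neighbouring region (61811401 to 61811822) had heights of 13, 15 and 12 untreated and 14, 10 and 10 with KCl. In both, KCl replicate 3 was lowest or tied for lowest, and the groups overlapped. Their mean heights fell below the minimum of 18.7 for the test described below. Regions at 61806511 to 61806978 and 61807763 to 61808194 were each called in 3 libraries at heights of 9 to 15.

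Prox1 held many regions over a short stretch. Its 19 regions covered 16.4% of the gene and flanks, and the tightest run of 10 lay within 15.3 kb (chromosome 1, 190149400 to 190164716). The highest region (190143767 to 190144531) had heights of 44, 43 and 46 untreated and 51, 34 and 23 with KCl. The untreated heights were close together, while the KCl heights lay on both sides of them. The region at 190151893 to 190152514 had heights of 36, 44 and 55 untreated and 42, 28 and 21 with KCl, again with overlap, since KCl replicate 1 exceeded untreated replicate 1. Of the 19 regions, 4 were called in all 6 libraries, 5 in 5 and 7 in a single library. The only region at a gene end (190117751 to 190117988, 47 bp from the 3′ end) was called in untreated replicate 2 alone, at a height of 10.

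Bcl11b held the highest and longest of the 123 regions. This region (chromosome 12, 107915169 to 107917724) is 2556 bp long and lies 4766 bp from the 3′ end of the gene. Its heights were 141, 166 and 116 untreated and 158, 122 and 87 with KCl, or 141 ± 25 and 122 ± 35.5 (SD, n = 3 each). Mean heights were lower in 99.8% of the 27310 regions that all 6 libraries called. The 2 groups overlapped, and the lowest value was again that of KCl replicate 3.

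The other Bcl11b regions were lower. The region at 107993599 to 107994648, 9497 bp from the 5′ end, had heights of 47, 48 and 46 untreated and 53, 35 and 20 with KCl. That is 47.0 ± 1.00 against 36.0 ± 16.5 (SD, n = 3 each), so the spread within the KCl group exceeded the difference. Of the 24 regions of the gene, 5 were called in all 6 libraries. Another (107984122 to 107984540) was called in all 3 untreated libraries, at heights of 10, 9 and 10, and in no KCl library. It was the only one of the 123 regions with that pattern (0.813%, against 1.01% of all active regions), and none showed the opposite pattern (0.0367% of all). When each library kept its 34834 highest intervals, the number held by the smallest library, no region of these genes had the first pattern. At a summit height of at least 15 there were 3. Leaving out a library gave 4 without untreated replicate 1 or 3, 2 without untreated replicate 2 or KCl replicate 2, and 7 without KCl replicate 1, and without KCl replicate 3 the opposite pattern had 1. The shares of all active regions with these patterns were not counted under these settings, so these counts have no background. No region lay within 1 kb of an end of Bcl11b.

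Zbtb20, the longest of the genes at 758.7 kb, held 18 regions, against a median of 10 in genes of 100 kb or more. Per 10 kb its density was 0.237, below the median of 0.508 in those genes. A long stretch of the central part of Zbtb20 held no region. A stretch of 230.2 kb (chromosome 16, 43122364 to 43352521), or 30.3% of the gene, was without a region. The highest region (43609240 to 43610067) lies 24325 bp from the 3′ end and had heights of 52, 65 and 49 untreated and 58, 42 and 40 with KCl. The other region called in all 6 libraries (42955532 to 42956092) had heights of 40, 44 and 35 untreated and 49, 31 and 19 with KCl. A transcribed pseudogene, Ndufs5-ps, lies within 1 kb of the latter. A weak region near the 3′ end was shared with the neighbouring gene Tigit, the only other protein-coding gene within 1 kb of any of the 123 regions.

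Nfia and Nfib, which encode related proteins and lie on the same chromosome, differed in density in every library. Nfia had 30, 28 and 23 regions in the untreated and 35, 19 and 7 in the KCl libraries, over a gene body of 540.8 kb. Nfib had 4, 4 and 3 untreated and 3, 2 and 1 with KCl, over 216.6 kb. Per 10 kb this is 0.424 to 0.553 against 0.137 to 0.183 in untreated libraries, and 0.129 to 0.645 against 0.0458 to 0.137 with KCl. The genes were compared after their values were known, so this is a description. The first 20% of Nfia from its 5′ end held 19 of its 49 regions, and 10 of these lay within 20.9 kb at the very start (chromosome 4, 97577920 to 97598783). Of the 49 regions, 6 also lay in or within 1 kb of the noncoding gene E130114P18Rik, which starts beside Nfia. The 2 regions nearest the 5′ end (97577920 to 97578351 and 97578788 to 97579150) were each called in 1 untreated library and in KCl replicate 1, at heights of 11 to 20. The region that reached into the promoter window (97581952 to 97582484) was called at 11 and 12 in untreated replicates 1 and 3 and at 23 and 15 in KCl replicates 1 and 2.

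The highest Nfia region (97925808 to 97926304) lies deep in the gene body. Its heights were 46, 40 and 43 untreated and 53, 18 and 17 with KCl. KCl replicate 1 was above all untreated libraries and the other 2 KCl libraries far below them. The region at 97795210 to 97795704 had heights of 23, 28 and 30 untreated and 22, 20 and 9 with KCl, so all KCl heights lay below all untreated ones. The single Nfib region called in all 6 libraries (82327611 to 82328112) had heights of 30, 40 and 29 untreated and 30, 23 and 15 with KCl, and the groups overlapped.

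**Figure D3:**
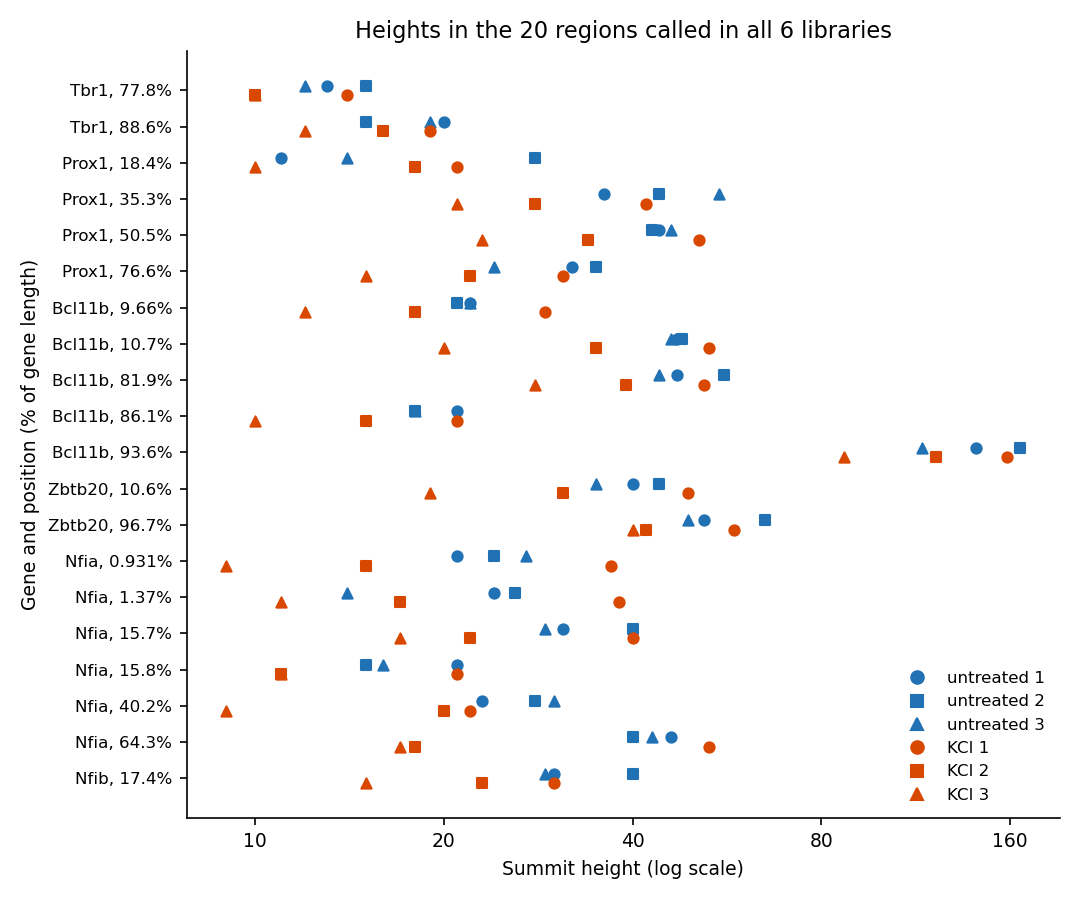
Summit height (log scale) in each library for the 20 regions called in all 6 libraries, named by gene and position along the gene body; blue marks are untreated and orange marks KCl, shapes give the replicate number, and equal heights overlie each other. KCl replicate 3 is lowest, or tied for lowest, in each of the 20, and the Bcl11b region at the right (87 to 166) stands above all others.

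Whether depolarisation changed 5mC was tested region by region, for 15 of the 123 regions. These lay in Prox1, Bcl11b, Zbtb20, Nfia and Nfib, and no region of Tbr1, Neurod1, Neurod2 or Neurod6 was tested. Heights were taken as log2(height + 1) and compared with limma, in a fit over all 20537 regions that all 6 libraries called and whose mean height was at least 18.7. No region passed in either direction at an adjusted p under 0.05 (0% of all tested regions), neither among the 15 regions of these genes nor elsewhere. At an unadjusted p under 0.05 limma gave 2 of the 15 lower with KCl (1.12% of all tested regions were) and 0 higher (0% of all). After median centring, which brings the libraries to the same median, 1 of the 15 was under 0.05 (3.64% of all, in either direction). These fits did not pair the libraries. With centring and libraries paired by replicate number, 3 of the 15 were under 0.05 in limma. At the same unadjusted threshold, 551 of all 20537 regions were then higher and 494 lower with KCl.

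Heights as deposited were lower with KCl in all 15 regions, as in 90.6% of all tested regions. The median change of all tested regions was -0.25 on the log2 scale and that of the 15 was -0.40. Without KCl replicate 3, 21 of 29 tested regions of these genes and 52.9% of all tested regions were lower, and the median of all was -0.02. Without KCl replicate 1, all 15 and 97.4% of all were lower, and the median of all was -0.46. Without untreated replicate 2 the median of all was -0.17. Changes are therefore given relative to the median region and called relative log2 changes. With 1 added to each height, the fold of a low region is understated. Relative to the median, 12 of the 15 regions were lower (50% of all tested regions are by construction) and 3 were higher, with a median of -0.16 and a range of -0.49 to 0.16. Over all tested regions the 5th and 95th percentiles were -0.32 and 0.31. When regions called in at least 2 libraries of each group were tested, with missing heights left out, 22 of 37 regions of these genes were lower and the median was -0.06. Without KCl replicate 3, 19 of 29 were lower, with a median of -0.07.

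The lowest relative changes of the 15 regions were at Nfia, and so was the highest. In the median-centred limma fit the region at 97925808 had a relative change of -0.49 (SE 0.21; unadjusted p = 0.0277, adjusted p = 1.00) and the region at 97795210 one of -0.47 (SE 0.23; unadjusted p = 0.0501, adjusted p = 1.00). In the limma fit of heights as deposited the changes were -0.73 and -0.72 (SEs 0.36 and 0.36; unadjusted p = 0.0445 and 0.0433, adjusted p = 0.932 for both). The latter was the only 1 of the 15 in which all KCl heights lay below all untreated heights, as in 4.14% of all tested regions, and in none of the 15 did they lie above (0.0292% of all). The first value moved to -0.23 when KCl replicate 2 was left out and to -0.79 when KCl replicate 1 was. Leaving out untreated replicate 3 moved the second to -0.31. The other tested Nfia regions had relative changes of -0.20 (97582665), 0.16 (97585249) and -0.16 (97662772), and the 0.16 was the highest of the 15.

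The named regions of the other genes lay closer to the median region. At Prox1 the relative log2 changes were -0.34 for 190151893 and -0.12 for 190143767 (limma SEs 0.18 and 0.17). Leaving out untreated replicate 3 gave -0.10 and -0.00301. For 190143767, leaving out untreated replicate 2 gave -0.22, KCl replicate 1 -0.18 and KCl replicate 3 -0.07. The Nfib region had -0.31 (SE 0.20). At Bcl11b the highest region had 0.02 (SE 0.09) and that at 107993599 had -0.23 (SE 0.17), which was -0.11 without KCl replicate 3. At Zbtb20 the values were -0.0025 for 43609240 and -0.10 for 42955532 (SEs 0.15 and 0.18), and leaving out KCl replicate 3 or 1 moved the second to -0.00127 or -0.22. The highest regions of Bcl11b and Zbtb20 turned in sign under some settings. Adjusted p was 0.932 for each of these 7 regions as deposited and 1.00 after centring.

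**Figure D4:**
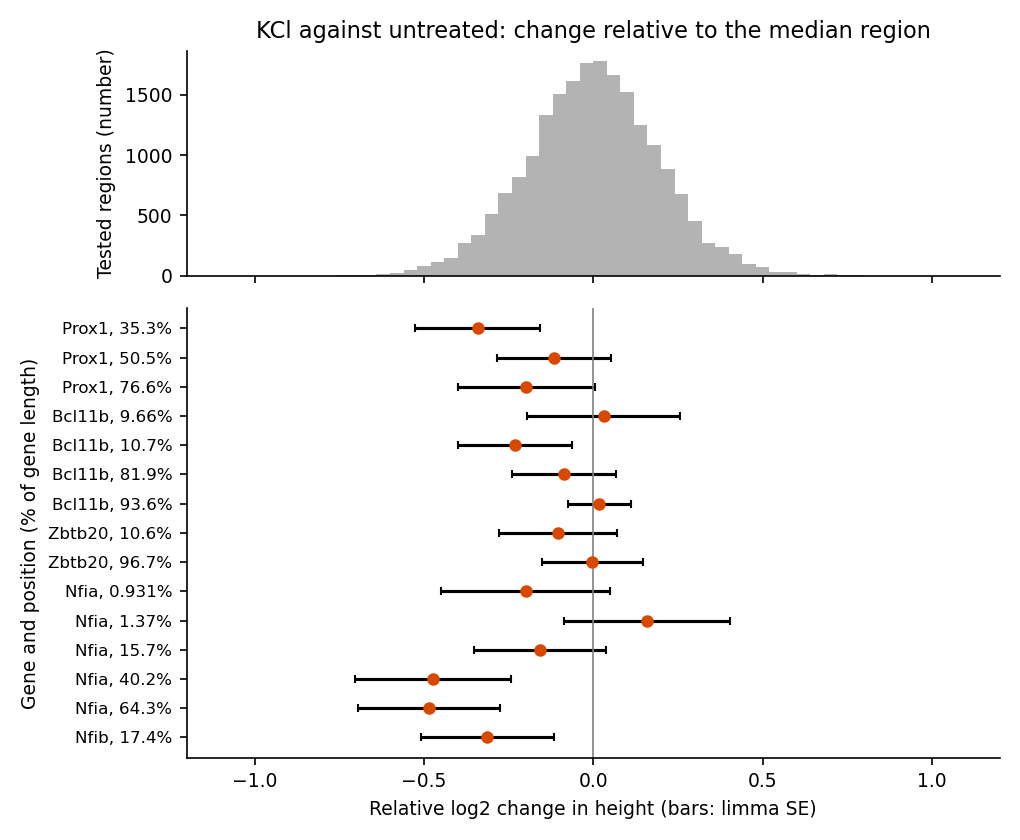
Upper panel: number of tested regions by log2 change in height with KCl relative to the median of all 20537. Lower panel: the same change for the 15 tested regions of the identity genes, named by gene and position along the gene body, with limma SE as bars. Of the 15 points, 12 lie below 0. The lowest are Nfia regions at -0.49 and -0.47, and the highest is an Nfia region at 0.16.

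Calls were fewest in KCl replicate 3, both in these genes and over all active regions, and its part in the differences between the groups is given by the values without it. The untreated libraries called 87, 75 and 65 of the 123 regions and the KCl libraries 83, 52 and 23. As shares these were 70.7%, 61.0% and 52.8% untreated and 67.5%, 42.3% and 18.7% with KCl. Over all active regions the shares were 64.3%, 64.7% and 53.9% untreated and 69.4%, 45% and 25.7% with KCl. The mean was 75.7 regions untreated and 52.7 with KCl. With each library held to its 34834 highest intervals the means were 31.3 and 30.3. In untreated replicate 1 the share was above that of all regions. In every other library, untreated or KCl, it was below, most so in KCl replicate 3.

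All 6 libraries called 20 of the 123 regions (16.3%, against 20.5% of all active regions), and a single library called 37 (30.1%, against 29.3%). A further 16 (13%) were called in every library but KCl replicate 3, against 10% of all. Calls in untreated libraries only made up 33 regions (26.8%, against 24% of all), and calls in KCl libraries only made up 13 (10.6%, against 11.9%). Bcl11b had 22, 16 and 12 calls untreated and 14, 9 and 6 with KCl. At Prox1 there were 14, 11 and 11 untreated and 15, 11 and 4 with KCl. At Zbtb20 there were 12, 12 and 11 untreated and 10, 7 and 3 with KCl. Held to the highest intervals, Zbtb20 had 6, 4 and 5 untreated and 7, 4 and 3 with KCl, and Bcl11b 10, 8 and 9 against 8, 7 and 6.

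**Figure D5:**
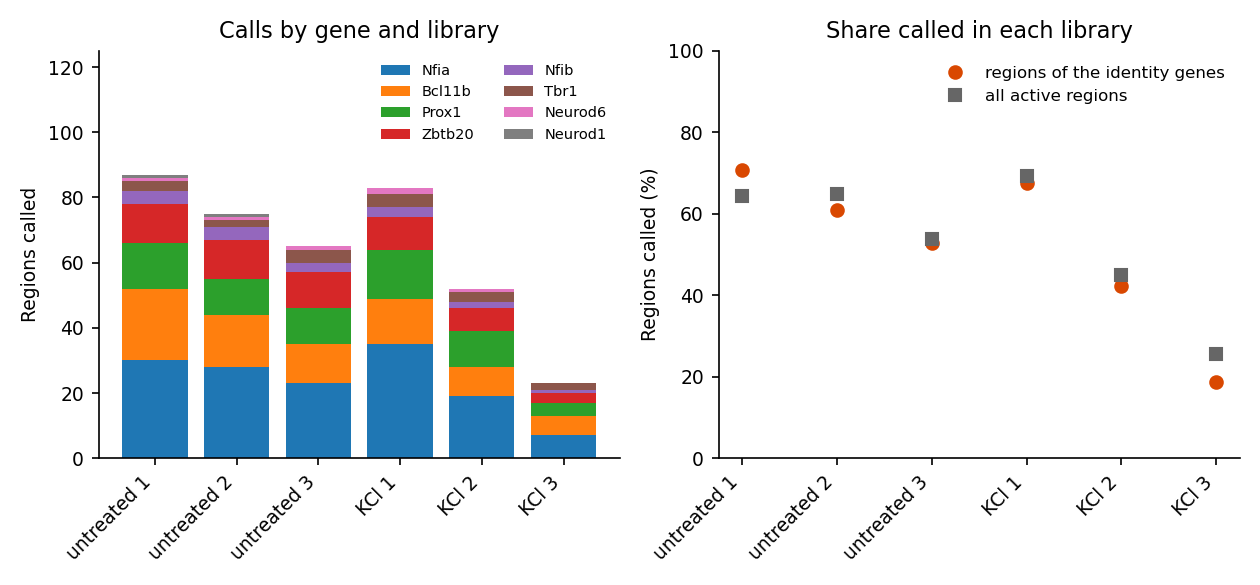
Left: number of regions of the identity genes called in each library, stacked by gene. Right: the share of these 123 regions (orange) and of all 133337 active regions (grey) called in each library. Both shares are lowest in KCl replicate 3 (18.7% and 25.7%) and the 3 KCl libraries span 23 to 83 calls.

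Regions at gene ends were set beside those of other identity genes. Of the 9 genes, 5 had a region within 1 kb of an end, against 26% of all protein-coding genes, and 1 (Tbr1) had one called in all 6 libraries, against 7.77%. Among 32 other factors of hippocampal and cortical excitatory neurons, 8 had an end region. For 3 of these it was called in all 6 libraries: Cux2 and Fezf2, factors of cortical projection neurons, and Eomes, of intermediate progenitors. These 32 genes held 557 regions, of which 113 (20.3%) were called in all 6. Among 16 factors of interneurons and glia, 7 had an end region, called in all 6 libraries at Nkx2-2, a factor of the oligodendrocyte lineage. They held 121 regions, of which 18 (14.9%) were called in all 6. Median density was 1.67 regions per 10 kb in the 9 genes, 0.518 in the 32 and 1.80 in the 16. The first of these is the value of Neurod1, which rests on 1 region. The lists were not matched for gene length, so these medians are not a like comparison.

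Of the 78 tested regions of the 32 genes, 46 were lower and 32 higher than the median region with KCl (median relative log2 change -0.02). Of the 16 tested regions of the interneuron and glia factors, 13 were lower and 3 higher (median -0.09). None of either list passed at an adjusted p under 0.05 in limma. Marker genes of cell types held 51 regions for 7 neuronal genes, 5 for 3 genes of inhibitory neurons and 20 for 5 astrocyte genes. They held 33 for 5 genes of the oligodendrocyte lineage and 10 for 4 microglial genes. None of their tested regions passed. Relative to the median region, 1 was lower and 5 were higher for neurons (median 0.14), 3 and 5 for the oligodendrocyte lineage (0.04), 1 and 3 for microglia (0.14) and 1 and 1 for astrocytes (-0.04), and no region of the inhibitory genes was tested. An end region called in all 6 libraries was present at Tubb3, Cspg4 and Csf1r, for neurons, the oligodendrocyte lineage and microglia.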

How the data were processed

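MeDIP-seq heights came from 3 untreated and 3 KCl libraries of cultured hippocampal neurons, and the pooled input library was not used here. Library preparation and read analysis were done by a commercial service, per the labels' protocols. BWA, SICER and mm10 are listed in the submitters' processing notes, without versions or settings. The values deposited by the authors are another kind of unit than counts: whole-number summit heights, a coverage-like signal, in 6 summit tracks, per the file headers. Intervals per library and active regions over all libraries came in further tracks. Read depth and any scaling between libraries: not given in the sources used here.

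Each active region took the highest summit per library. Heights as log2(height + 1) were compared with limma 3.58.1 in R 4.3.3 (intensity trend, two-sided, Benjamini-Hochberg adjustment) over regions called in all 6 libraries with a mean height of at least 18.7, the lower quartile. SEs of relative changes come from the median-centred fit. Alternatives were median centring, a pseudocount of 5, no height filter, regions called in at least 2 libraries of each group, a replicate block, windows of 0 and 5 kb, a summit height of at least 15, equal numbers of intervals, and each library left out. Deviations from group means of libraries with the same replicate number correlated at 0.113, 0.108 and 0.114. For libraries with different numbers the values were -0.0882 to -0.0137, so with a limit of 0.1 the numbers were taken as pairs. The pairing entered the alternatives with a replicate block only. The main fit, and the SEs and p-values printed for named regions, are unpaired. No label states what a replicate number stands for. Named regions were, per gene, the highest, the tested one with the lowest p, those within 1 kb of a gene end, all of them for genes with 5 or fewer, and those called throughout 1 group only, the promoter region of Nfia being added after its values were seen. The genes and comparison lists were chosen with earlier results of these data known. Symbols of all 9 genes and of the 7 comparison lists matched RefSeq. Coordinates are 1-based. Sequences are RefSeq promoter windows, GRCm38.p6; region sequences, exons and introns were not analysed here.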

Additional observations from a re-analysis of the deposited data

How the results depend on the processing

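The count of regions past the threshold was 0 higher and 0 lower in limma under all 12 alternative fits, the lowest adjusted p among all regions being 0.0842 without KCl replicate 1. In that fit 4325 of 20796 regions, and 9 of 15 regions of the identity genes, were lower at an unadjusted p under 0.05. Over all alternatives that number ran from 40 to 4325, against 231. The share of tested regions of these genes lying below the median region was 80% and ranged from 59.5% to 86.7%. With a replicate block it was 80%, which had to be so, as the block leaves relative changes unchanged here. With the block 0 regions passed, so the pairing changed no call at the adjusted threshold. An unadjusted p under 0.05 in limma was found for 2 of the 15 regions with the block, as without it. Over all 20537 tested regions, 509 were lower and 1 higher at that threshold with the block, and 231 and 0 without. After median centring, 3 of the 15 were under that threshold with the block and 1 without. Over all tested regions 551 were then higher and 494 lower with the block, and 405 and 342 without. Over 9 named regions and 12 alternatives, 100 of 108 values kept their sign and call. The 8 others belonged to the highest regions of Bcl11b and Zbtb20. Median centring and the replicate block, alone or together, leave relative changes as they are with 3 libraries per group. Under these settings the signs could not change, and only the calls were checked. At Bcl11b the relative log2 change was 0.02 and became -0.00796 with a pseudocount of 5, -0.00146 without a height filter and -0.0419 with regions called in at least 2 libraries of each group, and leaving out single libraries gave -0.0274 to 0.0605. At Zbtb20 leaving out single libraries gave -0.134 to 0.0760, with 0.0352 without untreated replicate 2, 0.00373 without untreated replicate 3, 0.0469 without KCl replicate 1 and 0.0760 without KCl replicate 2. Both values are smaller than their SE.

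The number of regions was 123, and 122 with the gene body alone, 132 with a window of 5 kb and 123 where at least 50% of a region had to lie inside. Calls depended on the height threshold. With equal numbers of intervals the means were 31.3 untreated and 30.3 with KCl, and 0 regions were called in all untreated libraries and no KCl one. At a summit height of at least 15 the means were 40.7 and 29, 11 regions were called in every library and 3 in all untreated ones and no KCl one. Leaving out single libraries, the regions called in all remaining ones numbered 20 to 36, the highest without KCl replicate 3. Regions in all untreated libraries and no KCl one numbered 1 to 7, with 7 without KCl replicate 1. The opposite pattern numbered 0 to 1, and the mean calls were 70 to 81 untreated and 37.5 to 67.5 with KCl. For both patterns the shares over all active regions were counted in the main setting only. Depth per library is unknown, and a region without a call has no height, so absence of a call does not show absence of 5mC.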
